A study of Arabidopsis thaliana with 56 samples.

Results

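ABF3 and GBF3, bZIP transcription factors (TFs) of the abscisic acid (ABA) response, were set directly against each other: the 2 libraries from cells transfected with ABF3 against the 3 libraries from cells transfected with GBF3, without the empty vector (EV) as a go-between. These 5 libraries of 56 in the series were chosen by their labels alone, and all came from the third batch. The cells were root protoplasts (cells freed of their wall) of 10-day-old Arabidopsis thaliana Col-0 seedlings, transfected in the TARGET assay with a vector carrying 1 TF fused to the glucocorticoid receptor, or with EV. They then received 35 µM cycloheximide (CHX), which blocks translation, and 10 µM dexamethasone (DEX), which lets the fusion enter the nucleus, and transfected cells were sorted before RNA-seq. CHX and DEX were given to every group, EV included. The groups used below were ABF3 (n = 2), GBF3 (n = 3), GBF2 (n = 3) and EV (n = 3) of batch 3, ABF1 (n = 3) and EV (n = 3) of batch 1, and GBF2 (n = 3) and EV (n = 3) of batch 2. Replicates were wells of cells that went through the assay together, so that p-values measure the spread between wells. The TF is overexpressed in isolated cells, and the plasmids of the study carried a GFP or an RFP marker that the labels do not give for each library. The names of the deposited tables carry the letter G for the ABF3, ABF1 and GBF2 libraries and the letter R for the GBF3 and EV libraries. If these letters name the marker, ABF3 differs in marker from GBF3 and from EV, and ABF1 and GBF2 differ from their EV, so that an effect of the marker and of the TF cannot be told apart in any of these comparisons.

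ABF3 is a group A bZIP, the group that binds ABA-responsive elements (ABREs) and carries the transcriptional output of ABA. The hormone is read by PYR/PYL receptors, which block clade A protein phosphatases 2C (PP2Cs) and so release SnRK2 kinases, and these kinases activate the group A bZIPs. GBF3 is a group G bZIP, named for binding the G-box. ABRE and G-box share the ACGT core, so that the comparison asks which genes respond differently to a pair of TFs with related binding sites.

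The words are shown first in the 250 bases upstream of the annotated gene start of a few genes from the ABA and defence lists (TAIR10.1, 5′ to 3′ on the gene's strand). Capitals mark an ABRE (ACGTGGC or ACGTGTC) or a G-box (CACGTG) on either strand, and overlapping matches run together. AFP3, RD29B, AITR6 and GBF2 were higher in ABF3 libraries and hold such words. HAI2 was also higher and holds none. WRKY51 was lower in ABF3 libraries and holds an ABRE that overlaps a G-box, and SARD1 was lower and holds none. These genes are examples and do not stand for the shares. From 250 bases before to 50 after the gene start, 521 of 772 higher genes had no such word, and 9.18% of 403 lower genes had one. The windows are chr3:11384146-11384395, minus strand for AFP3, chr5:21236771-21237020, plus strand for RD29B, chr5:20506355-20506604, minus strand for AITR6, chr4:484525-484774, minus strand for GBF2, chr1:2282829-2283078, minus strand for HAI2, chr5:25907997-25908246, plus strand for WRKY51 and chr1:27749249-27749498, minus strand for SARD1.
AFP3: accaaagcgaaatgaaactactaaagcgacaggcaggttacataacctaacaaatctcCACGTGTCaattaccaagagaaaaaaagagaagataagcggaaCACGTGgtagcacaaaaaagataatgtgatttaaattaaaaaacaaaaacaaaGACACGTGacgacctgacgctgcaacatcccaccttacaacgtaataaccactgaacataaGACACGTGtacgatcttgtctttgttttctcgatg
RD29B: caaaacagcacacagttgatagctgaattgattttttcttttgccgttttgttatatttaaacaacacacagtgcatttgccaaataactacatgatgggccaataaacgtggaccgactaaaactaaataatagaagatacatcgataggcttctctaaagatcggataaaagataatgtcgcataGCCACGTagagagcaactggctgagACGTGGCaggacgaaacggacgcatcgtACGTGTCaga
AITR6: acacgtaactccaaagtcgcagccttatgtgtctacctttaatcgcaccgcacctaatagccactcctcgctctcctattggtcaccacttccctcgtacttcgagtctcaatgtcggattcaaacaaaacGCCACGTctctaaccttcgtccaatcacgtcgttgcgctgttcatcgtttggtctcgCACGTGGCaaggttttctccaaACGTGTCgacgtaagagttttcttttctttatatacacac
GBF2: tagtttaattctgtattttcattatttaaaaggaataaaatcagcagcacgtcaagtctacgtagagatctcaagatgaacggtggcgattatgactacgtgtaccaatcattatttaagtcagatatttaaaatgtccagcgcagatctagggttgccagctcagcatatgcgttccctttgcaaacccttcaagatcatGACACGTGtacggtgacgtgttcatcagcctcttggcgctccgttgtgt
HAI2: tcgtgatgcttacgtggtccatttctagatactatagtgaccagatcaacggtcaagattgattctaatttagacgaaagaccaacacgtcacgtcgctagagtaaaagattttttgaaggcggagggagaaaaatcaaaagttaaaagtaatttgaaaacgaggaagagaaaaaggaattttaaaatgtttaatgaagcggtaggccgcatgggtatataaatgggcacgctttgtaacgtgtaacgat
WRKY51: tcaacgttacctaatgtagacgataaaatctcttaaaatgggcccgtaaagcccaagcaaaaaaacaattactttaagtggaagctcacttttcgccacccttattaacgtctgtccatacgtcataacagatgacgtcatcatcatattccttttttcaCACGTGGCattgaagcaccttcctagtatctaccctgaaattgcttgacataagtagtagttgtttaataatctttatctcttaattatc
SARD1: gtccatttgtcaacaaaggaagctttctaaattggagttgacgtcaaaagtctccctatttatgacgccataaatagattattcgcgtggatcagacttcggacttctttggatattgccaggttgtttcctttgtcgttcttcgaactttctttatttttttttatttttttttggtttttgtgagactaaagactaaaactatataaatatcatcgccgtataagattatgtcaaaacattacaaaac

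The transfected genes matched the labels. The ABF3 gene (AT4G34000) had 4051 and 5179 CPM (counts scaled to library size) in ABF3 libraries, against 34.3, 24.4 and 29.4 CPM in GBF3 libraries. The GBF3 gene (AT2G46270) had 277 and 354 CPM in ABF3 libraries and 3419, 3833 and 4097 CPM in GBF3 libraries, against 78.3, 96.4 and 92.1 CPM in EV libraries of the batch. GBF3 transcript in both ABF3 libraries was thus above that in every EV library, while ABF3 transcript in GBF3 libraries overlapped the 13.95, 24.7 and 27.2 CPM of EV. Whether transcript of the GBF3 vector adds to the GBF3 counts of ABF3 libraries was not tested. Both genes were left out of the tests because the vector's transcript is counted with the plant's own. Libraries held 19923379 and 22809887 counts for ABF3 and 17097105 to 18139804 for GBF3, of which rRNA-like loci took 1.13 to 5.41%. EV replicate 1 of batch 3 stood apart from the other EV libraries, with 12944485 counts, 16.8% of them from rRNA-like loci, and 15816 genes detected, against 20418 and 20591 genes in EV replicates 2 and 3. Among markers of root cell types, summed root cap markers reached 12.2 to 17.38 CPM in ABF3 libraries, 3.24 to 5.41 CPM in GBF3 and 8.60 to 10.14 CPM in EV, and root epidermis and hair markers 11.5 to 13.4, 2.41 to 5.82 and 0 to 3.26 CPM in the same order. In these lists 1 of 3 tested root cap markers (BRN2) and 1 of 3 epidermis markers (RHD6) were called higher, against 4.02% of all genes tested. At an unadjusted p under 0.05 there were 2 root cap markers and 1 epidermis marker. The log2 fold changes of root cap markers ran from 1.3 to 1.95. The list medians of the log2 fold change were 1.77 and -0.05. BRN2 was not called without GBF3 replicate 2 (adjusted p = 0.0721), and its log2 fold change was 1.22 without ABF3 replicate 2. RHD6 was not called in 1 model over all libraries of batch 3 (adjusted p = 0.158). The epidermis sum rested on RHD6, with WER and COBL9 too low to test. Summed stele markers reached 67.68 to 84.2 CPM in ABF3 libraries, 44.26 to 59.42 CPM in GBF3 and 45.87 to 65.77 CPM in EV, without overlap between ABF3 and GBF3, and their median log2 fold change was 0.71. No stele marker of 9 tested was called (3 at an unadjusted p under 0.05, 0 with DESeq2), nor was any endodermis marker of 4 (0 and 0), and the cortex and leaf mesophyll markers were at or near 0. The part of these cell type markers in the results below was not tested.

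Of 19225 genes tested with edgeR's quasi-likelihood test, 772 were higher in ABF3 libraries (4.02%) and 403 were lower (2.1%) at a Benjamini-Hochberg adjusted p under 0.05, with 3115 genes at an unadjusted p under 0.05. The higher genes also moved further. Their median log2 fold change of ABF3 over GBF3 was 1.16, against -0.75 for the lower genes and -0.02 for all genes tested. More than 4-fold differences were found for 181 higher and 18 lower genes, and more than 8-fold differences for 95 and 7. For 16 of the higher genes every GBF3 library held 0 counts, and for 5 of the lower genes every ABF3 library did. The counts fell when 1 library was left out. There were 676 higher and 332 lower genes without GBF3 replicate 1, 491 and 166 without GBF3 replicate 2, and 586 and 218 without GBF3 replicate 3. Leaving out an ABF3 replicate left 1 library in that group. A fit with fewer libraries has less power, so lower counts alone do not show that calls rest on a given library. No gene called here changed direction in any of these fits. Since the 2 groups did not overlap for any called gene, such a change was hardly possible, and its absence adds no support.

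**Figure D1:**
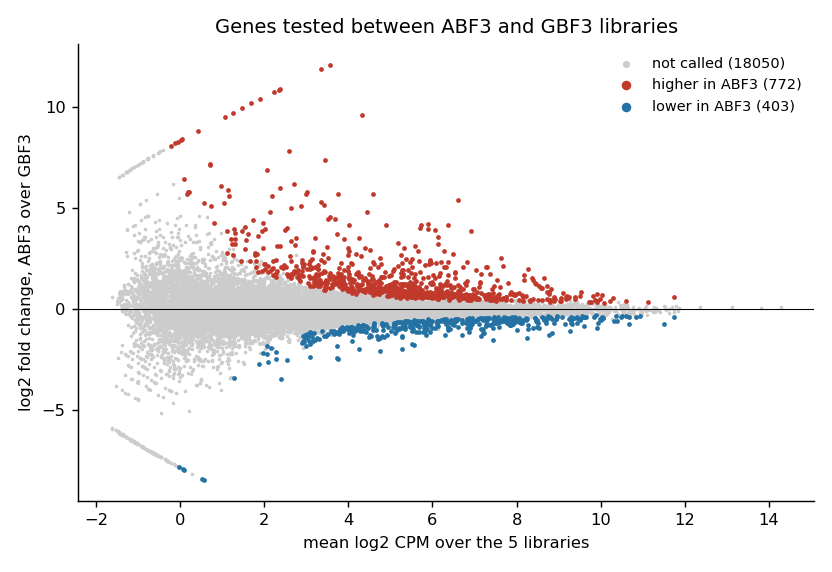
Log2 fold change of ABF3 over GBF3 (vertical) against mean log2 CPM over the 5 libraries (horizontal), 1 point a gene, with 772 genes higher in ABF3 in red, 403 lower in blue and the others in grey. The red points reach much further from 0 than the blue; the straight lines of points at the left are genes with 0 counts in 1 group.

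The largest differences were genes nearly silent in GBF3 libraries. Levels below are CPM scaled over the whole series, and log2 fold changes come from the fit of the 5 libraries. AT5G15500, which encodes an ankyrin repeat protein (chr5:5031648-5033540, minus strand), had 17.2 and 26.7 CPM in ABF3 libraries and 0 counts in all 3 GBF3 libraries. Set against the floor of 3 counts over the GBF3 group, it was at least 510.4-fold higher. AT5G18450, an integrase-type (AP2/ERF) DNA-binding protein (chr5:6116024-6117041, minus strand), had 17.7 and 20.5 CPM in ABF3 libraries and again 0 counts in every GBF3 library, at least 444-fold higher by the same floor. Neither gene passed 0.58 CPM in any EV library of the batch. CYP86A7, a cytochrome P450 of the fatty acid hydroxylase family 86, had 26.5 and 49.2 CPM in ABF3 libraries, against 0, 0.135 and 0 CPM in GBF3 libraries (log2 fold change 9.60 ± 0.52 (SE), adjusted p = 2.39e-08).

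ABCG25, which exports ABA from cells (chr1:27082394-27088248, minus strand), had 33.5 and 54.7 CPM in ABF3 libraries, against 1.09, 0.271 and 1.14 CPM in GBF3 libraries (log2 fold change 5.68 ± 0.36, adjusted p = 1.26e-07). HSFC1, a class C heat shock TF (chr3:8941066-8942874, plus strand), had 169 and 188 CPM in ABF3 libraries, against 6.11, 4.51 and 1.71 CPM in GBF3 libraries (5.41 ± 0.29, adjusted p = 2.39e-08). Its EV levels were 4.30, 5.90 and 6.04 CPM, so that GBF3 libraries overlapped EV for this gene. A gene on the opposite strand overlaps HSFC1, and the strand setting of the counting is not given in the sources used here. Opposite-strand genes also overlap other genes named below, among them SARD1, EDS5, RAB18, AAO3, GBF1, ABF4, BCAT2, LUX, CHS and SNRK2.8. ALMT12, an anion channel known for its part in stomatal closure, had 23.2 and 26.2 CPM in ABF3 libraries and 0, 0.767 and 0.657 CPM in GBF3 libraries (5.70 ± 0.53, adjusted p = 6.24e-06).

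The rest of the 12 largest rises were AT1G17615 (a TIR-NBS disease resistance protein), DRT112 (a plastocyanin), AT3G62160 (an HXXXD-type acyltransferase), HHP3 (a heptahelical protein), HIPP20 (a heavy-metal-associated protein) and the uncharacterized AT5G05220. Their log2 fold changes lay between 4.56 and 7.37. A lack of overlap between the 2 groups was a condition for naming these genes, and all 772 higher and 403 lower genes met it. The share of all genes tested that met it is not given here, so the lack of overlap adds no support to the calls. AT1G17615 was the least even, with 9.67 and 30.7 CPM in ABF3 libraries and reads in 1 of 3 GBF3 libraries. With DESeq2 it missed the threshold (adjusted p = 0.0527).

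Genes lower in ABF3 libraries differed less, and most were expressed in both groups. DGL, an alpha/beta hydrolase of the lipase family, had 2.26 and 3.02 CPM in ABF3 libraries, against 11.5, 17.3 and 15.8 CPM in GBF3 libraries (log2 fold change -2.51 ± 0.30, adjusted p = 8.49e-05). AT3G47480, an EF-hand calcium-binding protein, had 8.52 and 12.9 CPM in ABF3 libraries, against 40.3, 39.7 and 44.0 CPM in GBF3 libraries (-1.97 ± 0.20, adjusted p = 1.30e-05). WRKY70, a WRKY TF at the balance of salicylic acid and jasmonic acid defence, had 12.6 and 16.3 CPM in ABF3 libraries and 43.3, 43.4 and 55.1 CPM in GBF3 libraries, against 23.2, 30.7 and 34.8 CPM in EV libraries (-1.73 ± 0.18, adjusted p = 2.31e-05). EV lay between the groups for WRKY70, with no overlap on either side. The others of the 12 were PP2-B2, AT3G28600, AT1G29100, AT3G60415, AT4G19925, AT5G60800, CKX4, AT1G52430 and FMO1, with log2 fold changes of -2.43 to -1.60. CKX4 lost its call without ABF3 replicate 1, GBF3 replicate 3 or GBF3 replicate 2 (adjusted p 0.135, 0.114 and 0.0552 in that order). AT1G52430 and FMO1 lost theirs without ABF3 replicate 1 (0.267 and 0.191), GBF3 replicate 3 (0.129 and 0.179), GBF3 replicate 1 (0.14 and 0.1) or GBF3 replicate 2 (0.0959 and 0.119). AT1G52430 also shares 26.8% of its exonic 50-base words with other places in the genome, so that its reads may be split between copies.

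**Figure D2:**
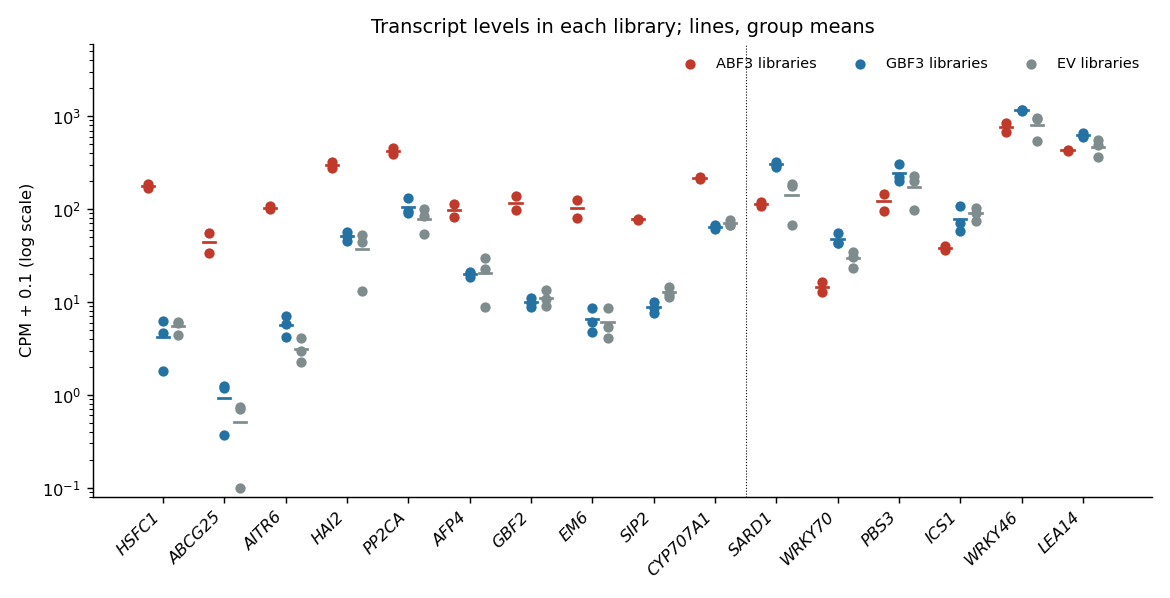
CPM + 0.1 on a log scale for 16 genes in each library of batch 3 (points) with group means (lines), ABF3 in red, GBF3 in blue and EV in grey; the dotted line parts genes higher in ABF3 from genes lower in ABF3. ABF3 and GBF3 points do not overlap for any gene shown, as was so for every gene called, so that this does not set the genes shown apart. GBF3 points overlap EV points for genes that include HSFC1, HAI2, AFP4, GBF2 and ICS1.

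The counts for the gene lists below stand against 4.02% of all genes tested called higher and 2.1% called lower. At the core of ABA signalling, PP2C genes were higher in ABF3 libraries, while 1 receptor gene and 1 kinase gene were lower. Of 9 clade A PP2C genes tested, 6 were higher in ABF3 libraries and none was lower, with a list median log2 fold change of 1.77. HAI2, a highly ABA-induced PP2C, had 274 and 323 CPM in ABF3 libraries, against 56.1, 51.3 and 44.9 CPM in GBF3 libraries (2.54 ± 0.13, adjusted p = 1.15e-08). PP2CA had 395 and 455 CPM in ABF3 libraries, against 130.3, 91.0 and 94.4 CPM in GBF3 libraries (1.99 ± 0.14, adjusted p = 3.68e-07). ABI2, HAB1, HAI1 and HAI3 were the other 4, with log2 fold changes of 0.75 to 2.07. ABI1, the paralog of ABI2, had 71.2 and 66.2 CPM in ABF3 libraries and 59.2, 51.4 and 52.3 CPM in GBF3 libraries (0.32 ± 0.13, adjusted p = 0.218), and HAB2 and AHG1 did not pass the test either. All 9 genes had an unadjusted p under 0.05, with log2 fold changes of 0.27 to 2.54. In EV libraries HAI2 had 12.97, 53.1 and 44.5 CPM, so that GBF3 levels were within the range of EV replicates 2 and 3 or just above it.

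Of 7 PYR/PYL receptor genes tested (of 14), only PYL5 was called, lower in ABF3 libraries, with 10.3 and 9.502 CPM, against 16.1, 14.4 and 21.5 CPM in GBF3 libraries (-0.83 ± 0.23, adjusted p = 0.0498). That call was lost in every fit that left out a library (0.0832 to 0.205) and with DESeq2 (0.0521). Of 9 SnRK2 genes, only SNRK2.8 was called, at 7.83 and 8.67 CPM in ABF3 libraries and 18.18, 13.7 and 14.2 CPM in GBF3 libraries (-0.92 ± 0.24, adjusted p = 0.0328), and it too was lost without any 1 library (0.0588 to 0.206). The list medians were 0.07 for receptors and -0.24 for kinases.

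Genes that make and remove the hormone were both among the higher ones. Of 8 biosynthesis genes tested, ABA1, NCED3, NCED9 and AAO3 were higher and none was lower (median 0.30). AAO3, which performs the last step, had 116 and 106 CPM in ABF3 libraries, against 73.9, 72.3 and 69.9 CPM in GBF3 libraries (0.60 ± 0.12, adjusted p = 0.00503; 0.0597 without ABF3 replicate 1). NCED3, the stress-induced dioxygenase of the committed step, had 314 and 305 CPM in ABF3 libraries and 262, 193 and 187 CPM in GBF3 libraries (0.51 ± 0.13, adjusted p = 0.0343). Its call was lost without ABF3 replicate 1 (0.15), ABF3 replicate 2 (0.101), GBF3 replicate 3 (0.177) or GBF3 replicate 2 (0.21), and those of ABA1 and NCED9 were lost without ABF3 replicate 1 (0.0513 and 0.365) or GBF3 replicate 2 (0.0985 and 0.149), of ABA1 without ABF3 replicate 2 (0.214) and of NCED9 without GBF3 replicate 1 (0.0786). On the side of removal, CYP707A1, an ABA 8′-hydroxylase, had 213 and 220.4 CPM in ABF3 libraries, against 65.8, 67.2 and 60.9 CPM in GBF3 libraries (1.73 ± 0.11, adjusted p = 1.21e-07). Its paralog CYP707A3 was also higher (0.69 ± 0.10, adjusted p = 5.60e-04). With ABCG25 these made 3 of 7 catabolism and transport genes higher and none lower (median 0.25).

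Repressors of ABA signalling were another group in which the TFs differed. All 4 AFP genes, of the family that binds and restrains the group A bZIP ABI5, were higher in ABF3 libraries (median 1.77). AFP4 had 82.2 and 115 CPM in ABF3 libraries, against 21.1, 18.4 and 20.2 CPM in GBF3 libraries (2.29 ± 0.16, adjusted p = 2.77e-07). AFP3, whose upstream window with 4 G-boxes is printed above, had 46.2 and 60.7 CPM in ABF3 libraries, against 11.7, 14.98 and 15.3 CPM in GBF3 libraries (1.91 ± 0.18, adjusted p = 6.16e-06). In EV libraries AFP3 had 2.22, 16.4 and 15.5 CPM. Of the 5 AITR genes tested, a family of ABA-induced transcription repressors, AITR5 and AITR6 were higher. AITR6 had 107 and 101 CPM in ABF3 libraries, against 6.92, 4.06 and 5.65 CPM in GBF3 libraries (4.20 ± 0.19, adjusted p = 6.02e-09). AITR5 was at 8.02 and 10.3 CPM in ABF3 libraries, against 1.66, 2.26 and 0.394 CPM in GBF3 libraries (2.65 ± 0.52, adjusted p = 0.00517; 0.0543 without ABF3 replicate 2).

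Among the bZIP genes themselves, 2 of 6 tested genes (group G, HY5 and HYH) were higher in ABF3 libraries (list median 0.20), as were 2 of 9 tested group A genes (list median -0.13), and none was lower in either list. GBF2, the group G relative of GBF3, had 96.9 and 138 CPM in ABF3 libraries, against 9.72, 10.96 and 8.63 CPM in GBF3 libraries and 8.88, 13.4 and 10.7 CPM in EV libraries (3.56 ± 0.17, adjusted p = 1.05e-08). GBF2 was itself transfected in other cells of batch 3, as was HB7, which is named below. Whether vector transcript adds to the counts of these genes in ABF3 libraries was not tested. GBF1 was higher by 0.70 ± 0.14 (adjusted p = 0.00517), lost without ABF3 replicate 2 (0.0748) or GBF3 replicate 2 (0.0525). BZIP16, BZIP68, HY5 and HYH did not pass. In group A, ABF2 (0.97 ± 0.21, adjusted p = 0.0118) and ABF4 (0.60 ± 0.13, adjusted p = 0.0136) were higher. ABF2 lost its call without ABF3 replicate 1 (0.0723), ABF3 replicate 2 (0.0531) or GBF3 replicate 2 (0.0752), and ABF4 without ABF3 replicate 2 (0.128), GBF3 replicate 3 (0.0633) or GBF3 replicate 2 (0.0739).

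**Figure D3:**
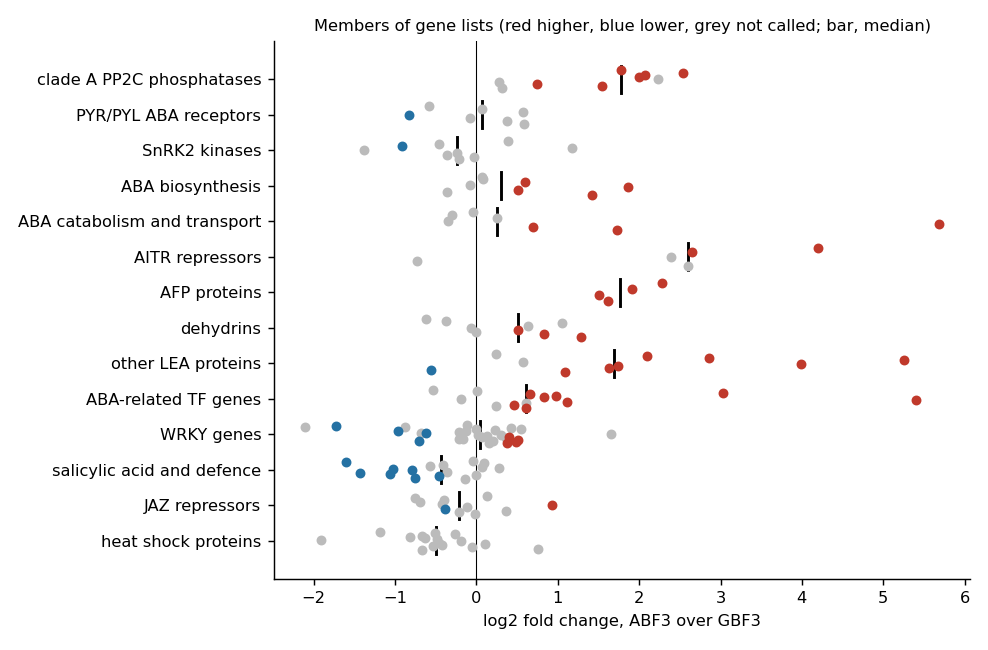
Log2 fold change of ABF3 over GBF3 for the tested members of 14 gene lists, 1 point a gene, red where higher in ABF3, blue where lower and grey where not called, with black bars at list medians. PP2C and AFP genes lie to the right of 0 with medians of 1.77, and salicylic acid and defence genes lie mostly to the left with a median of -0.44.

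Among protectants, late embryogenesis abundant (LEA) proteins, which guard cells during drying, were higher in ABF3 libraries in 7 of 10 tested, and lower in 1 (median 1.69). EM6, a seed LEA protein, had 79.9 and 126 CPM in ABF3 libraries, against 8.54, 5.91 and 4.69 CPM in GBF3 libraries (3.99 ± 0.23, adjusted p = 5.87e-08). LEA14 went the other way, with 433 and 426 CPM in ABF3 libraries, against 598, 608 and 657 CPM in GBF3 libraries (-0.55 ± 0.09, adjusted p = 0.00166). ECP31, another of the 7, was lost without ABF3 replicate 1 (0.065), ABF3 replicate 2 (0.176) or GBF3 replicate 2 (0.0979). Of 9 dehydrins, RAB18, ERD10 and COR47 were higher and none was lower (median 0.52). RAB18 had 51.9 and 57.8 CPM in ABF3 libraries, against 24.8, 19.98 and 21.7 CPM in GBF3 libraries (1.29 ± 0.15, adjusted p = 7.44e-05).

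The neighbouring genes RD29A and RD29B, classic markers of drought and ABA, parted. RD29B had 54.4 and 72.4 CPM in ABF3 libraries, against 16.8, 12.8 and 14.4 CPM in GBF3 libraries (2.09 ± 0.17, adjusted p = 2.09e-06). RD29A had 104 and 125 CPM in ABF3 libraries, against 169, 156 and 155 CPM in GBF3 libraries and 95.1, 135 and 113 CPM in EV libraries (-0.50 ± 0.12, adjusted p = 0.0196). The RD29A call was lost without ABF3 replicate 1 (0.305), GBF3 replicate 3 (0.0522), GBF3 replicate 1 (0.074) or GBF3 replicate 2 (0.0832), and the RD29B call in no fit. These are members of a list of RD29, COR15, KIN and related stress genes, of which 7 were tested, 3 were higher (RD29B, RD26 and COR413-PM1) and 2 lower (RD29A and ERD7), with a median of 0.51, and KIN2 was also higher with DESeq2. RD26, a NAC TF induced by drought and ABA, had 334 and 410.3 CPM in ABF3 libraries, against 129.5, 122 and 86.7 CPM in GBF3 libraries (1.70 ± 0.15, adjusted p = 3.68e-06). ERD7, an early dehydration-responsive gene, had 706.5 and 781.6 CPM in ABF3 libraries, against 1023, 1120 and 1181 CPM in GBF3 libraries (-0.60 ± 0.09, adjusted p = 0.001001). In the 250 bases upstream of the annotated gene start RD29B holds 3 ABREs and RD29A none. This count does not cover sequence outside those bases, so it does not show that RD29A lacks an ABRE elsewhere. Whether these words play a part in the difference between the 2 genes was not tested. In sugar metabolism SIP2, a raffinose-family enzyme, had 78.3 and 76.9 CPM in ABF3 libraries, against 10.0, 8.44 and 7.54 CPM in GBF3 libraries (3.14 ± 0.16, adjusted p = 1.73e-08). Of 6 tested genes of this pathway GOLS2 was also higher (1.04 ± 0.21, adjusted p = 0.006; 0.0638 without ABF3 replicate 2) and GOLS4 lower (-1.33 ± 0.35, adjusted p = 0.0361), with GOLS4 lost without ABF3 replicate 1 (0.255) or any GBF3 replicate (0.0518 to 0.156). Of 17 branched-chain amino acid catabolism genes, 2 were higher, BCAT2 (3.07 ± 0.39, adjusted p = 1.40e-04) and BCE1A1 (1.68 ± 0.34, adjusted p = 0.0063; 0.0807 without ABF3 replicate 1), and none was lower. Of 6 proline metabolism genes only P5CDH was called (0.86 ± 0.19, adjusted p = 0.0118), and it was lost without ABF3 replicate 2 (0.0872) or GBF3 replicate 2 (0.0595).

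TF genes of the ABA network were higher in ABF3 libraries in 8 of 13 tested, with none lower (median 0.61). Besides HSFC1, MYB102 had 24.6 and 26.1 CPM in ABF3 libraries, against 1.42, 4.38 and 3.37 CPM in GBF3 libraries (3.04 ± 0.34, adjusted p = 3.68e-05). MYBR1, also known as MYB44, had 424 and 468 CPM in ABF3 libraries and 260.2, 236 and 246 CPM in GBF3 libraries, against 169, 333 and 345 CPM in EV libraries (0.83 ± 0.10, adjusted p = 7.39e-05). It overlaps 3 other genes in the annotation, so that some of its counts may come from them. NAC019 (0.98 ± 0.11, adjusted p = 2.60e-05), HSFA6B (1.11 ± 0.14, adjusted p = 1.29e-04) and NAC055 (0.66 ± 0.13, adjusted p = 0.00632; 0.135 without ABF3 replicate 2) were higher. HB6 and HB7 were called higher by 0.46 ± 0.12 and 0.61 ± 0.16, and both calls were lost without ABF3 replicate 2 (0.272 each), GBF3 replicate 3 (0.111 and 0.143) or GBF3 replicate 2 (0.161 and 0.163), that of HB6 also without GBF3 replicate 1 (0.0616).

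Among salicylic acid and defence genes, 7 of 16 tested were lower in ABF3 libraries with edgeR and none was higher, against 2.1% and 4.02% of all genes tested (median -0.44). The 7 were PAD4, SAG101, ICS1, SARD1, EDS5, PBS3 and FMO1. With DESeq2 8 were lower, CBP60G being added, and 1 was higher, FRK1. SARD1, a TF that switches on salicylic acid synthesis, had 109 and 118 CPM in ABF3 libraries and 298, 286 and 325 CPM in GBF3 libraries, against 66.6, 178 and 186 CPM in EV libraries (-1.44 ± 0.11, adjusted p = 8.70e-07). ICS1, which makes isochorismate, the precursor, had 35.9 and 39.8 CPM in ABF3 libraries and 70.0, 57.5 and 107 CPM in GBF3 libraries, against 74.0, 91.4 and 104 CPM in EV libraries (-1.07 ± 0.21, adjusted p = 0.0049). For ICS1 the ABF3 libraries lay below EV, and the GBF3 libraries overlapped EV, whereas for SARD1 every GBF3 library was above every EV library. EDS5, the transporter of isochorismate out of the plastid, had 128 and 119 CPM in ABF3 libraries, against 211, 203 and 219 CPM in GBF3 libraries (-0.80 ± 0.11, adjusted p = 2.33e-04). PBS3, which acts on the exported precursor, had 96.2 and 147 CPM in ABF3 libraries, against 202, 220.0 and 309 CPM in GBF3 libraries (-1.02 ± 0.19, adjusted p = 0.00317). Without ABF3 replicate 1, ICS1 (0.0724), PBS3 (0.0676), SAG101 (0.134) and FMO1 (0.191) lost their calls, and SAG101 was also lost without GBF3 replicate 2 (0.0824). EDS1 and NPR1 did not pass, nor did the camalexin enzyme gene PAD3, and PR1 and PR5 were too low to test.

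WRKY genes went both ways, with 4 of 28 higher (WRKY6, WRKY11, WRKY22 and WRKY30) and 4 lower (WRKY18, WRKY46, WRKY51 and WRKY70), and a list median of 0.04, against 4.02% and 2.1% of all genes tested. With DESeq2, WRKY28 and WRKY53 were higher as well, which made 6 higher and 4 lower. The lower ones moved further: WRKY51 had 38.8 and 41.1 CPM in ABF3 libraries, against 62.4, 77.7 and 90.4 CPM in GBF3 libraries (-0.96 ± 0.16, adjusted p = 0.00133), and WRKY46 had 673 and 856 CPM, against 1135, 1165 and 1161 CPM in GBF3 libraries (-0.61 ± 0.10, adjusted p = 0.00155). The 4 higher ones had log2 fold changes of 0.37 to 0.52, and each lost its call without at least 1 library: WRKY6 and WRKY22 without ABF3 replicate 2 (0.108 and 0.0554) or GBF3 replicate 3 (0.122 and 0.0548), WRKY11 without ABF3 replicate 1 (0.0655), and WRKY30 without ABF3 replicate 2 (0.26) or any GBF3 replicate (0.0891 to 0.106). Among jasmonate repressors, 1 of 11 tested was higher (JAZ7, 0.93 ± 0.15, adjusted p = 0.00128) and 1 lower (JAZ5, -0.38 ± 0.09, adjusted p = 0.0188), and 6 had an unadjusted p under 0.05. With DESeq2 1 was higher and 3 were lower, JAZ8 and JAZ10 being added. JAZ5 was lost without ABF3 replicate 1 (0.122), ABF3 replicate 2 (0.102), GBF3 replicate 3 (0.0932) or GBF3 replicate 2 (0.0939). Heat shock protein genes had 0 of 16 called with edgeR (5 at an unadjusted p under 0.05), with a median of -0.50, and 2 called lower with DESeq2 (HSP70-4 and HSP23.6).

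Circadian clock and flavonoid genes had called members as well, against 4.02% of all genes tested called higher. Of 12 circadian clock genes PRR9 and LUX were higher and none was lower (median 0.25), and of 5 tested flavonoid genes CHS and its activator MYB12 were higher and none was lower (median 0.77). CHS had 3.26 and 4.49 CPM in ABF3 libraries, against 0.405, 0.0902 and 0.526 CPM in GBF3 libraries (3.46 ± 0.77, adjusted p = 0.013). PRR9 was lost without ABF3 replicate 2 (0.26) or any GBF3 replicate (0.0509 to 0.102), LUX without ABF3 replicate 1 (0.197) or GBF3 replicate 2 (0.0717), CHS without ABF3 replicate 2 (0.141) or GBF3 replicate 2 (0.0516), and MYB12 without any 1 library (0.0683 to 0.225). PRR9 shares 41.1% of its exonic 50-base words with other places in the genome.

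The EV libraries, which took no part in the test, show on which side the groups stood. Since the genes were picked on ABF3 and GBF3 levels, positions of those libraries are a description. Of the 772 genes higher in ABF3, 87.7% had every ABF3 library above every EV library, against 16.9% of all genes tested, and 18.9% had every EV library above every GBF3 library, against 6.06%. Of the 403 lower genes, 51.4% had every GBF3 library above every EV library (8.58% of all genes), and 44.4% had every EV library above every ABF3 library (10.1%). The last share depended on 1 library. Without EV replicate 1 it was 91.6%, against 19.7% of all genes, while the share with GBF3 above EV was 55.3% (12.5%), that of higher genes with ABF3 above EV was 95.7% (23%), and that of higher genes with EV above GBF3 was 34.8% (11.6%). Over the 403 lower genes, the median level was 39.7 and 43.5 CPM in ABF3 libraries and 65.7, 63.5 and 70.9 CPM in GBF3 libraries, against 44.1 CPM in EV replicate 1 and 58.3 and 62.3 CPM in EV replicates 2 and 3. Over the 772 higher genes, it was 39.9 and 42.3 CPM in ABF3 libraries and 17.5, 16.9 and 16.0 CPM in GBF3 libraries, against 14.3, 19.4 and 17.9 CPM in EV libraries. The mean of EV lay between the 2 groups for 58.4% of higher and 88.1% of lower genes, against 32.8% of all genes tested.

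**Figure D4:**
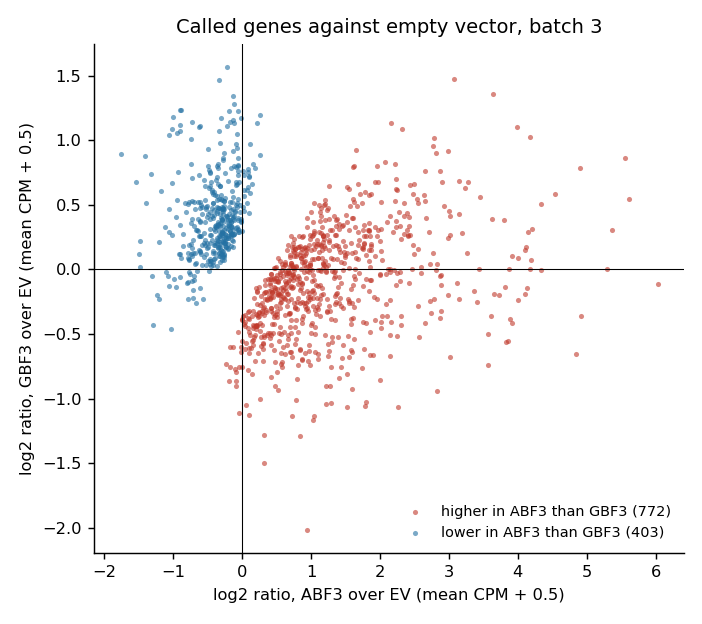
Log2 ratio of mean CPM + 0.5 to EV of batch 3 for ABF3 (horizontal) and GBF3 (vertical), 1 point for each of the 772 genes higher (red) and 403 lower (blue) in ABF3 than in GBF3; both ratios share the EV libraries. Red points spread to the right around a median of 1.06 for ABF3 over EV, and blue points sit in the upper left around -0.34 for ABF3 and 0.37 for GBF3.

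Libraries of the closest TFs in other batches were not used to pick the genes. Of the genes higher in ABF3 than in GBF3, 48.3% had every ABF1 library above every EV library of batch 1, against 8.63% of all genes tested, and 0.389% had EV above ABF1 (5.88%). Of the lower genes, 14.4% had every EV library above every ABF1 library and 0.744% had ABF1 above EV. HSFC1 averaged 132 CPM with ABF1 and 7.84 CPM with EV of batch 1, and AITR6 77.7 and 5.04 CPM. With GBF2 in batch 2, 73.9% of the lower genes were above every EV library, against 13% of all genes, and 2.48% had EV above GBF2 (18.7%). These GBF2 libraries had 17951, 17572 and 17439 genes detected, against 20753 to 22426 in EV of batch 2. The part of that difference in the shares was not tested. Among the higher genes 23.2% had GBF2 above EV and 26.9% had EV above GBF2. The 2 batches of GBF2 did not give like values: in batch 3, 25.6% of the lower genes had every GBF2 library above every EV library, against 14.5% of all genes, and 10.4% had EV above GBF2 (11%). Among the higher genes 14.8% had GBF2 above EV in batch 3 and 16.7% had EV above GBF2. Over the lower genes the median level in GBF2 libraries was 71.9, 62.7 and 71.5 CPM in batch 2, against 32.2, 35.6 and 35.7 CPM in EV of batch 2, and in batch 3 it was 58.9, 60.7 and 65.3 CPM, against 44.1, 58.3 and 62.3 CPM in EV.

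Words for binding sites were then counted from 250 bases before to 50 after the gene start, on both strands, for all genes tested. An ABRE was found in 27.6% of the genes higher in ABF3 and 5.21% of the lower ones, against 8.89% of all genes tested. A G-box was found in 22.8% and 5.71%, against 8.82%. The words overlap, and when split, an ABRE overlapping a G-box was in 15.9% of higher and 1.74% of lower genes (4.47% of all). An ABRE without a G-box was in 9.72% of higher and 3.47% of lower genes (4.01% of all). A G-box without an ABRE was in 4.92% and 3.97% (3.94% of all). The bare core ACGT was in 67.5% and 51.9%, against 50.8%. The W-box (TTGACC or TTGACT), the WRKY site, was in 41.3% of higher and 36.7% of lower genes (34% of all), and the DRE (ACCGAC or GCCGAC), the DREB site, in 11.3% and 14.1% (9.99% of all). A match is a run of letters, not a site shown to be bound.

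The share of genes called higher in ABF3 increased with the number of words. With overlapping ABRE and G-box matches counted as 1, 3.11% of 16759 genes without a word were higher, 8.12% of 2032 genes with 1 word, 16.6% of 373 genes with 2, and 39.3% of 61 genes with 3 or more. Lower genes ran the other way, at 2.18%, 1.67%, 0.804% and 0 of 61 genes. The median log2 fold change was -0.03, 0.08, 0.22 and 0.64 in the same order. Most genes higher in ABF3, 521 of 772, had no such word in this window, HSFC1, HAI1 and HAI2 among them.

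**Figure D5:**
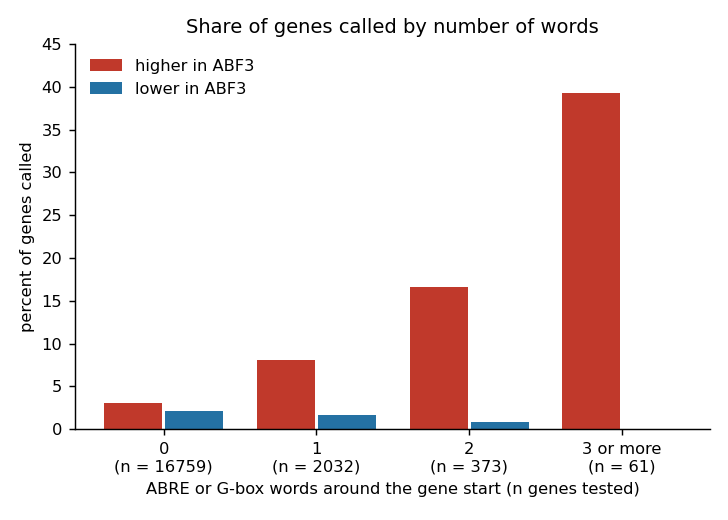
Percent of tested genes called higher (red) or lower (blue) in ABF3 than in GBF3 libraries, by the number of ABRE or G-box words in the window around the gene start; bars start at 0. The red bars go up to 39.3% at 3 or more words (61 genes), and the blue bars go down to 0.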

How the data were processed

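RNA-seq counts per gene were deposited by the authors as raw whole-number counts, 1 table per library with 33016 genes. Per the study's methods, reads were aligned with HISAT2 (version 2.0.5) to TAIR10 and counted over gene models. The strand setting is not given in the sources used here. The authors' own DESeq2 (version 1.22.1) model and CHX filter were not repeated.

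Counts of the 2 ABF3 and 3 GBF3 libraries were filtered (edgeR's filterByExpr, minimum count 10), scaled by TMM and fitted with the quasi-likelihood test of edgeR 4.0.16, two-sided, with p-values adjusted over all 19225 genes. ABF3 (AT4G34000) and GBF3 (AT2G46270) were left out. The SE is the log2 fold change divided by the square root of its F. Levels are CPM with TMM over all 56 libraries. Scripts were tested on simulated data. Totals of 17097105 to 22809887 counts limit the precision of genes with few counts, and a floor of 3 counts over the group was used where a group held 0.

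Named genes were the 12 largest fold changes in each direction with mean log2 CPM of at least 3 and no overlap between groups, plus members of gene lists. The genes compared and the lists were chosen with earlier results of these data known. Upstream sequence came from TAIR10.1, whose nuclear chromosomes are those of TAIR10, for all genes tested. Alternatives were DESeq2 (1.42.0), its size factors, no filter, a model of all batch 3 libraries, no rRNA-like loci, a replicate block, leaving out each library, and a window of 500 bases upstream. After the data were seen, EV without replicate 1 and GBF2 of batch 3 were added.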

Additional observations from a re-analysis of the deposited data

How the results depend on the processing

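No gene called in the comparison of ABF3 with GBF3 changed direction under any alternative run. The lack of overlap between the 2 groups for every called gene left such a change hardly possible. The counts of higher and lower genes were 867 and 554 with DESeq2, 787 and 370 with its size factors in edgeR, 1001 and 663 with no filter on low counts, 574 and 274 with 1 model over all libraries of batch 3, and 817 and 360 without the rRNA-like loci. Leaving out each library gave 489 to 676 higher and 161 to 400 lower genes. Replicate numbers 1 and 2 are shared by the groups, but nothing in the labels ties the numbers, and the deviations of same-numbered libraries correlated at 0.118 and 0.044. Per the study's methods, cells with the RFP and the GFP vector were put into replicate wells and later sorted by marker. Whether an ABF3 and a GBF3 library came from the same well is not given. With a replicate block there were 825 higher and 547 lower genes, 715 and 381 of them shared with the fit without it, and among named genes the block ended the calls of PYL5 and MYB12 only. Of 98 named calls, 19 were lost with the model over batch 3, 2 with DESeq2 (AT1G17615 and PYL5), and 11 to 25 when 1 GBF3 library was left out. In the model over batch 3 the largest adjusted p were those of MYB12 (0.508), WRKY30 (0.493), NCED9 (0.475) and CHS (0.429). GOLS4 (0.419), GOLS2 (0.382), ECP31 (0.349) and NCED3 (0.326) came next. The others lost there were AITR5, ECP63, RHD6, AT1G52430, FMO1, SNRK2.8, RD29A, HB7, WRKY6, WRKY11 and JAZ5.

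The share of higher genes with ABF3 above EV was 84.5% for genes called by DESeq2, 90.1% for those of the model over batch 3 and 95.7% without EV replicate 1. That of lower genes with GBF3 above EV was 43.7% for DESeq2's genes, that of higher genes with ABF1 above EV 52.3% for the batch 3 model's, and that of lower genes with GBF2 above EV 65.2% for DESeq2's and 25.6% with the libraries of batch 3. A G-box was in 8.93% of lower genes in 500 bases upstream, where 10.4% of all genes had one. The cause of these shifts was not tested. With 2 libraries of ABF3, small differences and genes of few counts rest on single wells.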
